A study of Mus musculus with 5 samples.

Results

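Elastic fibre and interstitial matrix genes were examined in the epiblast and visceral endoderm (VE) of single mouse embryos with and without Oct4. The group held 39 genes, matched by gene name in a deposited count table of 49671 genes. The genes were chosen by family: fibronectin, fibrillins and other microfibril proteins, fibulins, elastin and the lysyl oxidases, the latent TGF-beta complex, fibrillar collagens, and proteoglycans with matricellular proteins.

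RNA was measured by SmartSeq2, which amplifies full-length cDNA from polyadenylated RNA, in 2 SO+ and 3 SO− embryos at about E6.75. SO− embryos (Sox2Cre+/-; Oct4 fl/-) carried a Cre transgene under the Sox2 promoter, 1 floxed Oct4 allele and 1 null allele. SO+ embryos (WT; Sox2Cre-/-; Oct4 fl/+) lacked Cre and kept an intact allele beside the floxed one. Every embryo thus carried a floxed allele on a mixed strain background, and the effects of Cre, of the null allele and of Oct4 loss cannot be told apart. This Cre recombines mainly in epiblast cells, whereas each sample also held VE. The extra-embryonic ectoderm had been cut away by hand.

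Total counts were 27538119 and 27047148 in SO+ embryos 1 and 2, and between 1117566 and 4191498 in the SO− embryos. The mean SO+ total was 8.67 times the mean SO− total. A limit of 3 counts therefore corresponded to 0.109 and 0.111 counts per 1000000 total counts (CPM) in SO+ and to between 0.716 and 2.68 CPM in SO−. Pou5f1, which encodes Oct4, lay between 435 and 920 CPM in SO+ and between 12.5 and 43.7 CPM in SO− (log2 fold change -4.43, SE 0.33, adjusted p = 3.94e-05 by edgeR). The libraries of each genotype shared their second index, so index and genotype cannot be told apart. Fewer cells of a type and less RNA per cell also cannot be told apart in such samples.

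An elastic fibre consists of an elastin core on a scaffold of microfibrils. Fibrillins form the microfibril, MFAP and EMILIN proteins decorate it, fibulins link it to elastin, and lysyl oxidases crosslink elastin and collagen. Latent TGF-beta binding proteins (LTBPs) anchor inactive TGF-beta to fibrillin and fibronectin until it is released. Fibronectin is the main early interstitial matrix protein of the gastrulating embryo, along which mesoderm and endoderm cells migrate.

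Tgfb2 and Efemp1, which had the 2 largest fold changes among the members that passed in edgeR, are shown first by the bases upstream of their starts. RefSeq promoter windows of 300 bases (250 before and 50 after the start, GRCm38.p6) matched 25 of the 39 genes, in 36 windows. Printed are bases 250 to 11 upstream, read 5′ to 3′ on the gene's own strand. Capitals mark a TATA box (TATAAA) in Tgfb2, and an AP-1 motif (TGANTCA) and a GC box (GGGCGG or its complement) in Efemp1. The Tgfb2 stretch lies at chr1:186706000-186706239 on the minus strand and the Efemp1 stretch at chr11:28852955-28853194 on the plus strand.
Tgfb2: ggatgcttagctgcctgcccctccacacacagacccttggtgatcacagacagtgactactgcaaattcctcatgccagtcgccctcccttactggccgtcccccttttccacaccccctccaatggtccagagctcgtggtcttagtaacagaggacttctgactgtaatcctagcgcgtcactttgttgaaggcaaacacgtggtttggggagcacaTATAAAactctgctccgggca
Efemp1: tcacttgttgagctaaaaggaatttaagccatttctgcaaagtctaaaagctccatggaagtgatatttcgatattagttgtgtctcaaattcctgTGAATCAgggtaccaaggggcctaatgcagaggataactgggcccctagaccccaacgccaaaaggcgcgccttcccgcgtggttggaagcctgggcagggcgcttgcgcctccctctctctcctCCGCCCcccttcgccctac

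The TATA box of Tgfb2 began 31 bases upstream of the start, and the AP-1 motif and GC box of Efemp1 began 154 and 29 bases upstream. On both strands, TATAAA was found in 13.6% of 32851 RefSeq mouse windows, TGANTCA in 7.81% and GGGCGG in 35.7%. Among the 36 windows of matrix genes, 6 held TATAAA, 2 held TGANTCA and 24 held GGGCGG. The octamer ATGCAAAT, the classical motif of the POU factor family to which Oct4 belongs, was in 1.74% of all windows and in 3 windows here, 1 of Col3a1 and an overlapping pair of Tnc. Neither printed gene had these exact octamer letters in its window.

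Per kilobase of annotated exon, fibulin 1 was the most abundant matrix message of the group. The mean level over the 5 embryos was 41.9 CPM per kilobase for Fbln1, followed by 18.6 for Mfap3, 14.4 for Mfap2, 12.2 for Mfap4 and 11.4 for Fn1. Efemp2 (4.72), Emilin1 (3.45), Ltbp1 (3.05), Efemp1 (2.94) and Loxl2 (2.33) came next, and every other member lay below 2. Elastin itself was almost absent. Eln had at most 7 counts in any embryo, and Fbln5, Lox, Ltbp2 and Postn had none in any library. The major interstitial collagens were as scarce, with at most 5 counts of Col1a1 and 11 of Col3a1. The label of the group was therefore only partly met by these samples, which held microfibril, fibulin and fibronectin messages with next to no elastin, collagen I alpha 1 or collagen III.

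**Figure D1:**
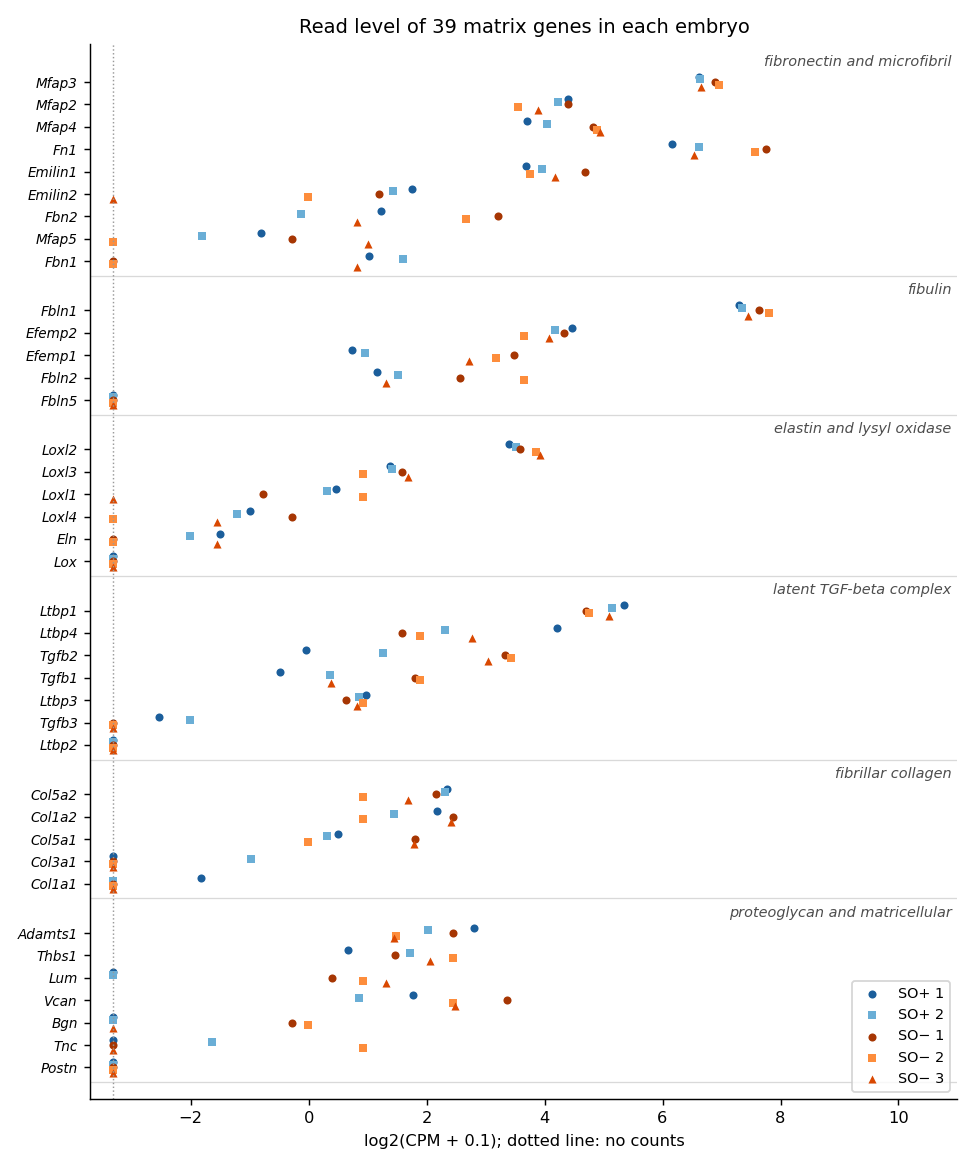
Level of all 39 matrix genes in each embryo, as log2(CPM + 0.1) on the horizontal axis, grouped by role, with blue points for the SO+ embryos, orange and brown points for the SO− embryos and a dotted line where a gene has no counts. Fbln1, Mfap3 and Fn1 sit farthest to the right, while Fbln5, Lox, Ltbp2 and Postn lie on the dotted line in every embryo.

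The question asked of the series was which messages first differ once Oct4 is deleted. Among the matrix genes, 3 were higher in SO− embryos and none was lower at an adjusted p under 0.05 in edgeR: Tgfb2, a TGF-beta ligand, Efemp1, which encodes fibulin 3, and Mfap4, a microfibril-associated protein. These 3 calls came from 23 members tested, beside 2.35% of all 12067 genes tested and 1.42% called higher. No member passed lower in edgeR or DESeq2, and 1 of the 8 members with an unadjusted p under 0.05 in edgeR was below 0. The share of all genes under that unadjusted p is not given, so such counts, here and below, have no background. The median log2 fold change of the 23 was 0.36, against -0.0019 over all genes tested, and 16 of the 23 were above 0, against 49.7% of all genes. In 8 of the 23, every SO− embryo lay above every SO+ embryo, and in 3 every SO− embryo lay below, against 13.9% and 15.6% of all genes tested.

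The other 16 members had too few counts for the edgeR filter, which asked for about 2.39 CPM in at least 2 embryos. Of the 23 that passed, 5 did so only through SO− embryos (Tgfb2, Efemp1, Tgfb1, Fbn2 and Col5a1) and Emilin2 only through SO+ embryos. Such genes had to differ to be tested, so the counts above describe the tested members only.

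**Figure D2:**
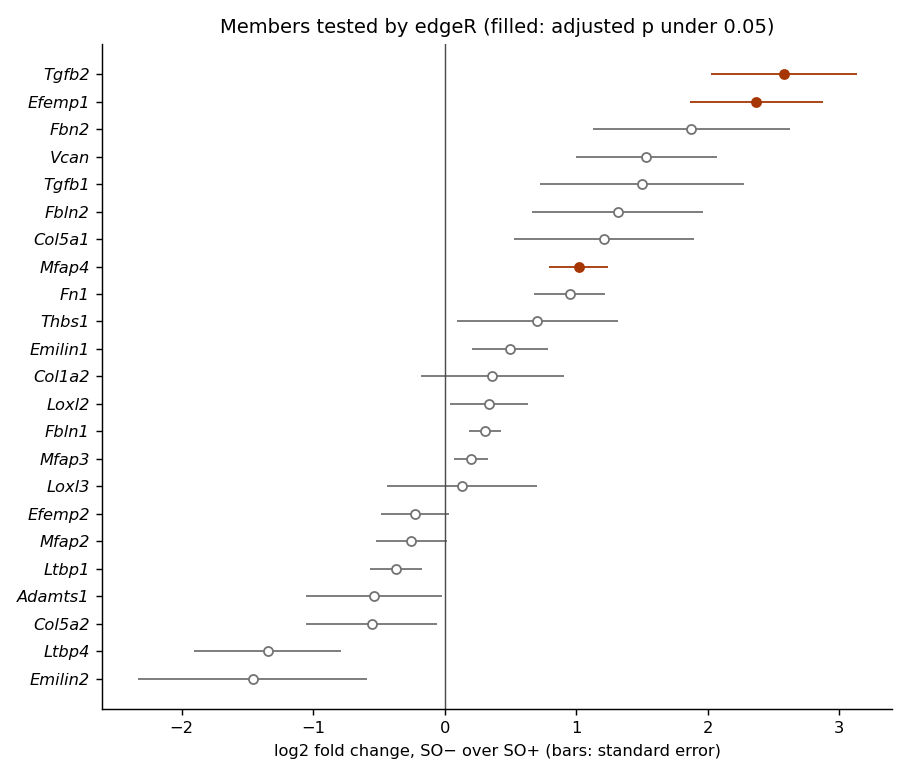
Log2 fold change of SO− over SO+ for the 23 members tested by edgeR, with bars for the standard error and filled points for an adjusted p under 0.05. Only Tgfb2 (2.58), Efemp1 (2.37) and Mfap4 (1.02) are filled, and the estimates run from -1.46 for Emilin2 to 2.58 for Tgfb2.

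Among the ligands held in the latent complex, Tgfb2 rose. Its level was 0.872 and 2.29 CPM in SO+ embryos 1 and 2, and 9.92, 10.7 and 8.11 CPM in SO− embryos 1, 2 and 3. The SO− embryos were all above the SO+ embryos, and the groups did not overlap. These levels rest on 24 and 62 counts in SO+ and 41, 12 and 34 counts in SO−. The mean was 1.58 ± 1.00 CPM (SD, n = 2) in SO+ and 9.59 ± 1.34 CPM (SD, n = 3) in SO−. The log2 fold change was 2.58 (SE 0.56, adjusted p = 0.0284 by edgeR, 0.000732 by DESeq2). The call was lost when SO+ embryo 1 (log2 fold change 2.03, adjusted p = 0.112 by edgeR) or SO− embryo 1 (2.53, 0.209), 2 (2.51, 0.193) or 3 (2.68, 0.0552) was left out, and in limma-voom (2.72, 0.0621).

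The other TGF-beta ligands were scarcer. Tgfb1 ranged from 0.617 to 1.18 CPM in SO+ and from 1.19 to 3.58 CPM in SO−, and did not pass (log2 fold change 1.50, SE 0.78, adjusted p = 0.432 by edgeR). Tgfb3 had 2 and 4 counts in SO+ and none in SO−, where the SO+ level would not have been detectable at this depth. Tgfb2 made up 55.8% (95% Wilson interval 41.1 to 69.6) and 63.3% (53.4 to 72.1) of the counts of the 3 ligands in SO+ embryos 1 and 2. In SO− embryos 1, 2 and 3 the share was 74.5% (61.7 to 84.2), 75% (50.5 to 89.8) and 87.2% (73.3 to 94.4). The share was higher in each SO− embryo than in either SO+ embryo, but the intervals of SO− embryos 1 and 2 overlapped those of both SO+ embryos. Intervals and limits of this kind cover counting error only.

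Of the LTBPs, only Ltbp1 and Ltbp4 were tested, and neither passed. Ltbp1 was the most abundant, with 40.7 and 35.3 CPM in SO+ embryos 1 and 2 and 25.9, 26.8 and 34.1 CPM in SO− embryos 1, 2 and 3. Each SO− embryo was below both SO+ embryos, although SO− embryo 3 came within a small margin of SO+ embryo 2, and the log2 fold change of -0.37 had an adjusted p of 0.462 in edgeR. Ltbp4 was uneven between the SO+ embryos, at 18.4 CPM in embryo 1 and 4.88 CPM in embryo 2, and ranged from 2.90 to 6.68 CPM in SO−. Its log2 fold change of -1.34 (SE 0.56, adjusted p = 0.299 by edgeR) became -2.00 (adjusted p = 0.00618) without SO+ embryo 2 and -0.11 (adjusted p = 0.997) without SO+ embryo 1. Ltbp3 had 46 to 51 counts in SO+ and 2 to 7 in SO−, with 1.45 to 1.85 CPM throughout, and Ltbp2 had none. Per length, Ltbp1 made up 64.0% of the summed LTBP level in SO+ and 75.9% in SO−.

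Among the fibulins, Efemp1 rose and the others did not pass. Fibulin 3, its product, is a secreted glycoprotein of basement membranes and elastic tissue. Its level was 1.56 and 1.85 CPM in SO+ embryos 1 and 2, from 43 and 50 counts. In SO− embryos 1, 2 and 3 it was 11.1, 8.95 and 6.44 CPM, from 46, 10 and 27 counts. The pair of SO+ embryos lay close together, and every SO− embryo was above them without overlap. The mean was 1.71 ± 0.203 CPM (SD, n = 2) in SO+ and 8.84 ± 2.34 CPM (SD, n = 3) in SO−, with a log2 fold change of 2.37 (SE 0.51, adjusted p = 0.0273 by edgeR, 0.00135 by DESeq2). The call was lost without SO+ embryo 1 (2.24, adjusted p = 0.0991 by edgeR) and without SO− embryo 1 (2.12, 0.243) or 2 (2.37, 0.153), and when the SO+ libraries were thinned to the mean SO− total (2.32, 0.0549).

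Fbln1, a fibulin of early embryonic matrices, stood at 157 and 162 CPM in SO+ embryos 1 and 2 and at 198, 223 and 174 CPM in SO− embryos 1, 2 and 3. The groups did not overlap, but the log2 fold change was only 0.31 (SE 0.12, adjusted p = 0.269 by edgeR). Fbln2 ranged from 2.14 to 2.77 CPM in SO+ and from 2.39 to 12.5 CPM in SO−, the highest value being that of the shallowest library, and Efemp2, which encodes fibulin 4, from 18.1 to 22.0 and from 12.5 to 20.1 CPM. Neither passed. Per length, Fbln1 held 84.9% of the summed fibulin level in SO+ and 82.3% in SO−, while the part of Efemp1 was 1.94% and 7.86%.

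Of the 7 fibronectin and microfibril genes tested, Mfap4 rose. Its level was 12.9 and 16.3 CPM in SO+ embryos 1 and 2, and 28.3, 29.5 and 30.5 CPM in SO− embryos 1, 2 and 3. The SO− embryos were all higher and close to one another. With 33 to 128 counts in SO− and 355 and 440 in SO+, it was the deepest measured of the 3 called genes. The mean was 14.6 ± 2.39 CPM (SD, n = 2) in SO+ and 29.5 ± 1.1 CPM (SD, n = 3) in SO−, and the log2 fold change was 1.02 (SE 0.23, adjusted p = 0.0323 by edgeR, 0.0174 by DESeq2). The call was lost without SO+ embryo 1 (log2 fold change 0.85). The adjusted p in edgeR was 0.208 (1.04), 0.185 (1.02) and 0.111 (0.98) without SO− embryo 1, 2 or 3, and limma-voom gave 0.0841 (1.04). In the thinned libraries Mfap4 was called in 3 of 10 random draws, with a median adjusted p of 0.0591 in edgeR (1.01). Exons of Mapk7 on the opposite strand cover 4.63% of the exon bases of Mfap4, and whether reads were counted by strand is not given in the sources used here.

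**Figure D3:**
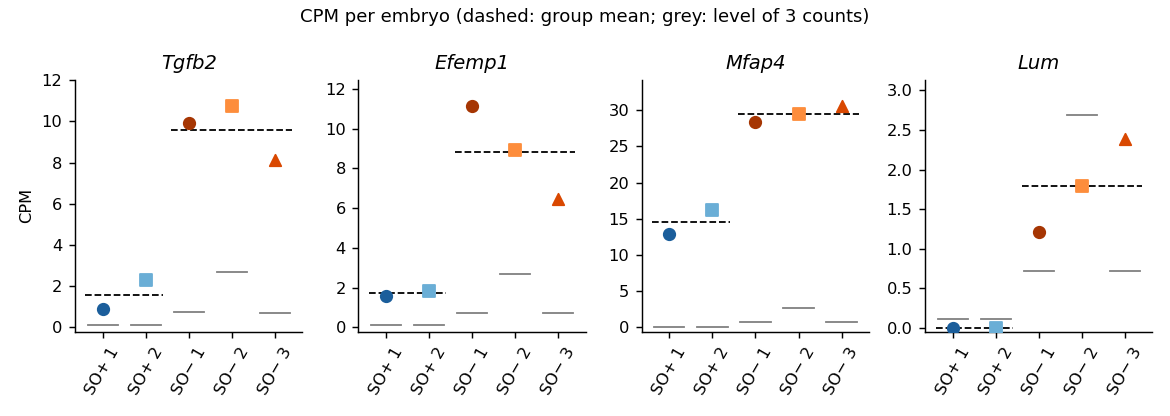
CPM per embryo of Tgfb2, Efemp1, Mfap4 and Lum, with a dashed line for the mean of each genotype and a grey bar for the level of 3 counts in that library. For all 4 genes every SO− point is above both SO+ points, and only for Lum does an SO− point (embryo 2, at 1.79 CPM) lie under its own 3-count level of 2.68 CPM.

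The rest of the microfibril genes did not pass. Mfap3, which encodes a membrane glycoprotein first found with microfibrils, had 98.3 and 99.7 CPM in SO+ embryos 1 and 2 and 118, 124 and 100.4 CPM in SO− embryos 1, 2 and 3. SO− embryo 3 was barely above the SO+ embryos, and the log2 fold change was 0.20 (adjusted p = 0.570 by edgeR). Mfap2, which binds fibrillin, ranged from 18.6 to 20.8 CPM in SO+ and from 11.6 to 21.0 CPM in SO−. Emilin1, a microfibril protein that restrains TGF-beta processing, ranged from 12.7 to 15.4 and from 13.4 to 25.6 CPM, and Mfap5 had at most 13 counts. Emilin2 rested on 90 and 70 counts in SO+ and on 9, 1 and 0 in SO−, and did not pass (log2 fold change -1.46, SE 0.87, adjusted p = 0.516 by edgeR). Its log2 fold change was -3.77 without SO− embryo 1 and -0.73 without SO− embryo 3. The SO− values lay below the SO+ values, but 3 counts in SO− embryo 2 correspond to 2.68 CPM, above the 2.59 CPM of SO+ embryo 2, so a separation from that library was not detectable at this depth. Per length, Mfap4 made up 18.5% of the summed MFAP level in SO+ and 31.7% in SO−.

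The fibrillins, which build the microfibril itself, were scarce. Fbn1 had 53 and 79 counts in SO+ embryos 1 and 2 (1.92 and 2.92 CPM) but 0, 0 and 7 counts in SO− embryos 1, 2 and 3. A count of 0 allows up to 0.726 CPM in SO− embryo 1 and up to 2.68 CPM in SO− embryo 2, and SO− embryo 3 was at 1.67 CPM. Fbn1 was under the edgeR filter and its adjusted p in DESeq2 was 0.805. A gene on the opposite strand covers 20.1% of its exon bases. Fbn2, the fibrillin most used in embryonic tissue, ranged from 0.813 to 2.25 CPM in SO+ and from 1.67 to 9.19 CPM in SO−, and the groups overlapped (log2 fold change 1.88, SE 0.75, adjusted p = 0.268 by edgeR). Per length, Fbn2 was 36.7% of the summed fibrillin level in SO+ and 90.4% in SO−, a description that rests on few counts.

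Fn1, which encodes fibronectin, did not pass. Its level was 71.5 and 98.2 CPM in SO+ embryos 1 and 2, and 216, 189 and 92.3 CPM in SO− embryos 1, 2 and 3. SO− embryos 1 and 2 were well above both SO+ embryos, while SO− embryo 3 lay between them, so the groups overlapped. The log2 fold change was 0.95 (SE 0.27, adjusted p = 0.0964 by edgeR, 0.483 by DESeq2). The difference passed without SO− embryo 3 (1.26, adjusted p = 0.00427 by edgeR) and without SO+ embryo 2 (1.20, 0.00312).

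Fn1 was set beside the markers of the VE. The summed level of 10 VE markers, among them Afp, Ttr and Apoa1, was 2845 and 3030 CPM in SO+ embryos 1 and 2 and 4199, 4228 and 2750 CPM in SO− embryos 1, 2 and 3. As for Fn1, the sum was highest in SO− embryos 1 and 2, and no VE marker was at 0 in any library. The order differed in the other embryos, as SO− embryo 3 had the lowest sum but more Fn1 than SO+ embryo 1. Of the 10 markers, 8 lay above 0 and 2 below, with a median log2 fold change of 0.38. Only Spink1 passed (log2 fold change 0.63, adjusted p = 0.0058 by edgeR). It was at 374, 414 and 371 CPM in SO− embryos 1, 2 and 3, without the fall of the sum in SO− embryo 3. Per 1000 CPM of these markers, Fn1 stood at 25.1 and 32.4 CPM in SO+ and at 51.4, 44.7 and 33.6 CPM in SO−. On that scale the groups no longer overlapped, with SO− embryo 3 just above SO+ embryo 2. The part of VE content in the Fn1 values was not tested.

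**Figure D4:**
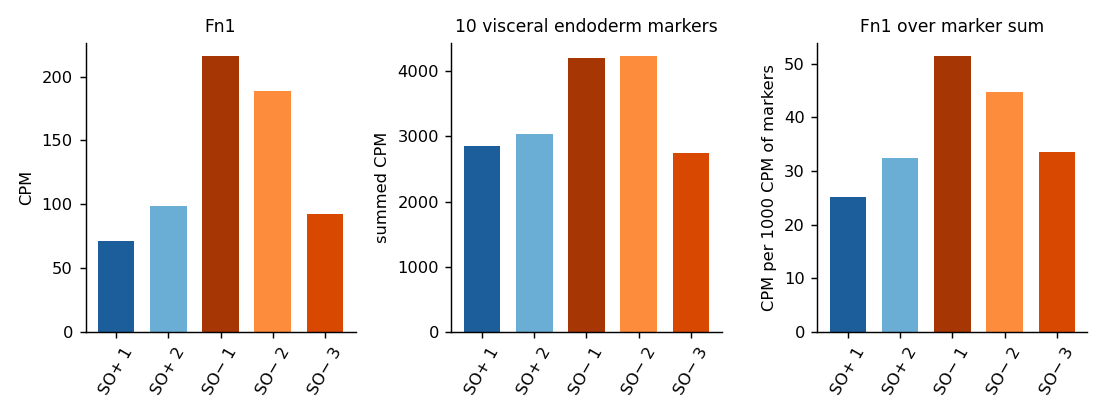
Fn1 in CPM (left), the summed CPM of 10 visceral endoderm markers (middle) and Fn1 per 1000 CPM of those markers (right), 1 bar per embryo, blue for SO+ and orange or brown for SO−. SO− embryos 1 and 2 are highest in all 3 panels, and SO− embryo 3 is lowest for the markers at 2750 CPM.

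Per 1000 CPM of the same VE markers, Tgfb2 was at 0.306 and 0.757 CPM in SO+ and at 2.36, 2.54 and 2.95 CPM in SO−. Efemp1 was at 0.549 and 0.610 CPM and at 2.65, 2.12 and 2.34 CPM. Mfap4 was at 4.53 and 5.37 CPM and at 6.74, 6.98 and 11.1 CPM. For these 3 genes the SO− embryos stayed above the SO+ embryos on this scale. Fbln1 did not keep its separation, with 55.3 and 53.5 CPM in SO+ and 47.2, 52.7 and 63.2 CPM in SO−. SO− embryo 3, with the lowest marker sum, was the highest for Tgfb2, Mfap4 and Fbln1, but not for Efemp1.

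Other cell types were followed in the same way. The sum of 7 epiblast markers was 4772 and 5985 CPM in SO+ and between 2133 and 3200 CPM in SO−, with Pou5f1, Utf1 and Dnmt3b called lower. Dnmt3b and the deleted gene make up most of this sum, and 2 of the 7 markers lay above 0 without passing, Sox2 (log2 fold change 0.56) and Fgf5 (0.38, with 251 and 377 CPM in SO+ and 420, 370 and 424 CPM in SO−). The sum of 8 mesoderm markers overlapped (431 to 658 and 439 to 589 CPM), although Hand1, a factor of extra-embryonic and lateral mesoderm, rose from 1.09 and 2.74 CPM to 13.5, 24.2 and 11.9 CPM (log2 fold change 3.04, adjusted p = 0.0075 by edgeR). Sums overlapped for extra-embryonic ectoderm (149 to 184 and 183 to 198 CPM) and for parietal endoderm (496 to 529 and 462 to 526 CPM), in which Fst was called lower. Maternal decidua markers summed to 10.6 to 11.9 CPM in SO+ and 11.6 to 21.0 CPM in SO−, with Prl8a2 and Prl3c1 at 0 in every library. Of these 9 markers 2 were tested, and both lay above 0 (log2 fold changes 0.42 and 1.50). Neither passed, and 1 had an unadjusted p under 0.05 in edgeR. Blood and immune markers summed to 0 to 1.11 and 1.21 to 3.10 CPM, with 5 of the 8 genes at 0 everywhere, among them Ptprc. The part of the mesoderm, decidua and blood vessel markers in the matrix results was not tested.

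Lumican, a small leucine-rich proteoglycan of interstitial matrix encoded by Lum, was read in SO− embryos only. It had 0 counts in both SO+ embryos and 5, 2 and 10 counts in SO− embryos 1, 2 and 3, or 1.21, 1.79 and 2.39 CPM. The SO− mean was 16.3 times the mean level of 3 counts in the SO+ libraries. That ratio is no lower limit, because it leaves out the counting error of the SO− counts. Lum was under the edgeR filter. DESeq2 called it (adjusted p = 0.0022) as 1 of 4 members among 28 with an adjusted p, beside 2.52% of all 15084 such genes, while edgeR without the filter gave an adjusted p of 0.0735. With at most 10 counts in a library, this difference rests on the fewest reads of those called, and in SO− embryo 2 the value lay below the level of 3 counts.

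The other proteoglycans and matricellular genes did not pass. Vcan, which encodes the hyaluronan-binding proteoglycan versican, was at 3.30 and 1.70 CPM in SO+ embryos 1 and 2 and at 10.2, 5.37 and 5.49 CPM in SO− embryos 1, 2 and 3. The groups did not overlap, but the log2 fold change of 1.53 (SE 0.54) had an adjusted p of 0.200 in edgeR. Adamts1, a protease that cleaves versican, was at 6.86 and 3.96 CPM in SO+ and 5.32, 2.68 and 2.62 CPM in SO−. By the mean over the 5 embryos it was the most abundant of this role per length. In SO− alone its mean of 0.668 CPM per kilobase was below the 0.733 of Lum. The groups overlapped for Adamts1 (log2 fold change -0.54, adjusted p = 0.740 by edgeR). Thbs1, which can activate latent TGF-beta, ranged from 1.49 to 3.18 CPM in SO+ and from 2.66 to 5.37 CPM in SO−. Tnc, Bgn and Postn had at most 6, 3 and 0 counts.

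Of the lysyl oxidases, Loxl2 was the main form in both genotypes, with 66.7% and 74.5% of the summed family level per length in SO+ and SO−. It was at 10.4 and 11.3 CPM in SO+ embryos 1 and 2 and at 11.9, 14.3 and 15.0 CPM in SO− embryos 1, 2 and 3. The SO− embryos were slightly higher without overlap, but the log2 fold change of 0.34 (SE 0.30) had an adjusted p of 0.706 in edgeR. Loxl3 ranged from 2.51 to 2.55 CPM in SO+ and from 1.79 to 3.10 CPM in SO−. Loxl1 and Loxl4 had at most 35 and 11 counts in any embryo.

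The fibrillar collagens were low and none passed. Col5a2 was at 4.97 and 4.88 CPM in SO+ embryos 1 and 2 and at 4.35, 1.79 and 3.10 CPM in SO− embryos 1, 2 and 3. It was the most abundant per length over the 5 embryos. In SO− alone it held 33.7% of the summed level per length, against 34.8% for Col1a2. For Col5a2 all SO− embryos were below the SO+ embryos, the lowest with 2 counts. Its log2 fold change of -0.55 (SE 0.50) had an adjusted p of 0.714 in edgeR. Col1a2 ranged from 2.63 to 4.43 CPM in SO+ and from 1.79 to 5.32 CPM in SO−, and Col5a1 from 1.15 to 1.31 and from 0.895 to 3.39 CPM. Col1a2 was thus read in every embryo while its partner chain gene Col1a1 had 5 counts in 1 embryo and none in the others.

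Among 69 further genes of matrix assembly and TGF-beta signalling, 48 were tested and 3 passed in edgeR, or 6.25%, beside 2.35% of all genes tested. Serpinh1, which encodes the collagen chaperone HSP47, rose from 157 and 141 CPM in SO+ to 238, 302 and 252 CPM in SO− (log2 fold change 0.82, adjusted p = 0.0037 by edgeR). Col2a1, the collagen II chain, rose from 9.33 and 9.58 CPM to 38.0, 24.2 and 25.3 CPM (1.66, adjusted p = 0.0049). Skil, a repressor of Smad proteins that is itself a TGF-beta target, fell from 112 and 105 CPM to 75.7, 55.5 and 69.4 CPM (-0.66, adjusted p = 0.0341). None of the 3 overlapped between genotypes. Over the 48 tested genes, 12 were higher in every SO− embryo and 7 lower in every SO− embryo, against 13.9% and 15.6% of all genes tested.

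By role, where single calls in short lists say little beside that background, 1 of 14 tested genes of collagen synthesis and folding passed (Serpinh1), 1 of 6 other interstitial matrix genes (Col2a1) and 1 of 9 TGF-beta receptor and Smad genes (Skil). None of 13 matrix proteases and inhibitors and none of 6 matrix-binding integrin subunits passed in edgeR, with 3 and 2 of them at an unadjusted p under 0.05. DESeq2 called none of the proteases and 1 integrin subunit. That subunit was Itgb1, the beta chain shared by the fibronectin receptors, at 202 and 230 CPM in SO+ and 301, 293 and 286 CPM in SO− (log2 fold change 0.45, adjusted p = 0.0512 by edgeR, 0.0163 by DESeq2). The receptors Tgfbr1 and Tgfbr2 did not pass. The median log2 fold change of the 48 genes was 0.14.

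Basement membrane genes, which encode laminins, collagen IV, nidogens and perlecan, were set beside them as the other main form of early embryonic matrix. None of the 12 tested of 13 passed in edgeR or DESeq2, with 2 at an unadjusted p under 0.05 in edgeR. Beside 2.35% called among all genes tested, a count of none in a list of this size is near the background. Their median log2 fold change was 0.10, against 0.36 for the 23 matrix genes. Of those 23, 5 were tested only through their SO− level and 1 only through its SO+ level, which can raise their median. Their summed level was 962 to 1025 CPM in SO+ and 928 to 1106 CPM in SO−, and that of the 39 matrix genes 507 to 518 CPM in SO+ and 557 to 749 CPM in SO−. The difference between both groups of genes was not tested.

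The plot of estimates by setting shows that size and direction moved less than the calls. Across 16 settings the log2 fold change stayed between 2.03 and 3.42 for Tgfb2, 2.12 and 2.58 for Efemp1, 0.85 and 1.20 for Mfap4, and 0.65 and 1.29 for Fn1. No setting reversed any of these 4 genes. The highest values of Efemp1 and Fn1 came from the fit with a block for replicate number. In that fit SO− embryo 3, whose number no SO+ embryo shares, added nothing to the genotype estimate.

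Of the members on chromosome 17, where Pou5f1 and its engineered alleles lie, Emilin2 was 35.7 Mb and Ltbp1 39.5 Mb from Pou5f1. Neither passed the test. Tgfb2 (chromosome 1, 186622792 to 186705989), Efemp1 (chromosome 11, 28853204 to 28926743) and Mfap4 (chromosome 11, 61485431 to 61488900) lie on other chromosomes.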

How the data were processed

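Single embryos of 2 genotypes were grouped as SO+ and SO− from the labels' genotype field. After trimming with cutadapt and STAR alignment to GRCm38/mm10, the authors used HTSeq on Ensembl genes and deposited whole-number counts, unscaled. PCR copies were not marked by molecular identifiers. Strand use in counting is not given in the sources used here.

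The 39 members and all other gene lists were chosen with earlier results of these data known. Counts were tested over all genes in R 4.3.3 with edgeR 4.0.16 (TMM scaling, filterByExpr, a quasi-likelihood F test with 1 term for genotype), Benjamini-Hochberg adjustment and a threshold of 0.05. The SE of a log2 fold change was its size over the square root of F. CPM were computed here from total counts, and per-length levels from GENCODE M21 exon lengths on the same build. Alternatives were DESeq2 1.42.0, limma-voom (limma 3.58.1), other scaling and filters, a robust fit, a replicate block, length and GC trends removed, SO+ libraries thinned in 10 draws, and each embryo left out. Values per embryo are printed for members called by edgeR or DESeq2, for non-overlapping members with a mean of at least 5 CPM, for the most abundant member of each role and for Fn1. Itgb1 and Fbn1 were named after their values were seen. Values of single embryos for Emilin2, Ltbp4, Tgfb3, Fgf5 and Pecam1 are also printed outside this rule. Fits were tested on simulated counts. Libraries of the same genotype differed beyond counting noise (chi-square over its degrees of freedom between 2.78 and 30.3), and each was counted as 1 sample. Precision is limited by the SO− depth.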

Additional observations from a re-analysis of the deposited data

How the results depend on the processing

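Leaving out 1 embryo at a time gave 0 to 5 members called, 0 to 4 higher and 0 to 1 lower, 35 to 573 genes called in all, 0 to 4 of the pathway genes, and a median log2 fold change of the members of 0.19 to 0.42. No member was called without SO+ embryo 1, SO− embryo 1 or SO− embryo 2. Without SO− embryo 3, Efemp1 and Fn1 were called. Without SO+ embryo 2, Fn1 and Ltbp4 joined the 3 genes called with all embryos. In limma-voom 1 member was called (Efemp1, higher), 91 genes in all, and the median was 0.48. With the SO+ counts thinned down to SO− depth, the median over 10 draws was 1.5 members called, and 1.5 called higher, with a median log2 fold change of 0.51. Other scaling, filters, length and GC trends and the robust fit called the same 3 members, and DESeq2 added Lum. Pou5f1 missed the threshold in limma-voom (log2 fold change -4.35, adjusted p = 0.0639) and in the robust edgeR fit (-4.43, adjusted p = 0.0988). The cause of these shifts was not tested.

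With the replicate block, 7 members were called (6 higher, 1 lower, adding Fbln1, Fbn2, Fn1 and Ltbp4), with 929 genes in all, 7 pathway genes and 1 basement membrane gene. Same-numbered embryos are different animals that share only a number, and their deviations correlated at 0.0077 and 0.115. No SO+ embryo has the number 3, so in this fit SO− embryo 3 added nothing to the genotype estimate. Loxl3 reversed to -0.029 with the replicate block, and ranged from -0.0076 (without SO− embryo 3) to 0.26 when embryos were left out in turn. Counts of 10 to 46 in SO− limit the precision of Tgfb2 and Efemp1.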

Other observations

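Several matrix messages were uneven between embryos of the same genotype and were named after their values were seen. Ltbp4 had 508 counts in SO+ embryo 1 and 132 in SO+ embryo 2, from libraries of nearly equal size. Thbs2, a matricellular thrombospondin, had 154 and 13 counts in the same embryos, and Matn2, a matrilin, had 24 and 153. Kdr, the VEGF receptor of early blood vessel and blood precursors, had 1 and 124 counts, or 0.036 and 4.58 CPM, and 17.9, 17.9 and 8.35 CPM in SO− embryos 1, 2 and 3 (log2 fold change 2.64, adjusted p = 0.222 by edgeR). Mesp1, a factor of nascent mesoderm, had 575 and 1712 counts in the SO+ embryos. SO+ embryo 2 was thus the higher of the pair for Kdr, Mesp1 and Matn2 and the lower for Ltbp4 and Thbs2.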
